A study of Mus musculus with 8 samples.

Results

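The genes flanking Irf8 on mouse chromosome 8 were taken from the entries of the deposited tables by transcript coordinates. Their lower coordinate lay between 118.0 and 125.5 Mb (build mm10), a window of 7.5 Mb, leaving out Irf8 itself, Cox4i1 and Rpl13. Distances run from that coordinate to that of Irf8, so for genes on the minus strand they are those of the transcript end. The window held 116 entries, of which 113 were kept out of 23469 genes in all, 26 of them before Irf8 and 87 after it on the plus strand. A ratio was computed only for genes with 1 RPKM or more in at least 2 of 4 libraries, which left 34 neighbours (30.1%), against 290 genes on the rest of chromosome 8 (29.1% of them) and 6446 genes in all (27.5%). RPKM counts reads relative to the length of the transcript and to the mapped reads of the library.

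Germinal centre (GC) B cells, the B220+ FAShigh GL7high cells of C57BL/6 mice, were sorted at day 13 after immunization with NP-KLH, in which the hapten NP is coupled to the carrier KLH. The Irf8 cKO libraries came from Irf8flox/flox mice that carry a Cre allele (n = 2) and the Ctrl libraries from Irf8+/+ mice that carry the same Cre allele (n = 2), with 1 library of each in experiments 1 and 2. Cre is thus shared by both groups, and the floxed allele is in the Irf8 cKO mice alone. The labels do not say that the replicates came from separate animals, so the p-values measure the spread between these samples, which may be technical. The 4 samples of B cells cultured with lipopolysaccharide were not analysed here.

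IRF8 is a transcription factor of B cells and myeloid cells that binds DNA mainly with partners, at joined ETS and IRF elements with PU.1 or at tandem IRF elements with other IRF proteins. A floxed allele is made by gene targeting, and the chromosome on either side of a targeted gene is inherited with it. Neighbours of a targeted gene are therefore set beside the other genes of its chromosome. The labels do not name the strain of the cells in which the allele was made. The genes around Irf8 have no pathway in common: among them are replication factors, chromatin proteins, vesicle and autophagy proteins and enzymes.

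All 12 germinal centre B cell markers listed for this work reached 1 RPKM in at least 1 library, and none was at 0 in all libraries. They summed to 334 and 226 RPKM in Irf8 cKO libraries, against 468 and 401 RPKM in Ctrl libraries. All marker sums here are on RPKM as deposited, without scaling, where the median log2 ratio of all genes was -0.35. Depth, estimated from the steps of low RPKM values, was 76.0 M and 63.7 M mapped reads in Irf8 cKO 1 and 2 and 72.9 M and 62.8 M in Ctrl 1 and 2. Fewer genes reached 1 RPKM in the library Irf8 cKO 2 (4845) than in the other libraries (6171 to 6566), and its scaling factor was 0.655, against 1.06 in Irf8 cKO 1 and 1.27 and 1.13 in the Ctrl libraries. Myeloid markers summed to 17.0 and 2.35 RPKM in Irf8 cKO libraries, against 65.6 and 7.74 RPKM in Ctrl libraries. Of the 7 myeloid markers 3 reached 1 RPKM and Cd14 was at 0. T cell markers summed to between 2.73 and 5.08 RPKM over the 4 libraries, 1 of 7 reached 1 RPKM and Cd3g was at 0. Plasma cell markers summed to 33.2 and 19.6 RPKM in Irf8 cKO libraries and 43.1 and 25.7 RPKM in Ctrl libraries, and 3 of 6 reached 1 RPKM. Stroma and endothelium markers summed to between 2.36 and 4.10 RPKM, and 1 of 5 reached 1 RPKM. No NK or erythroid marker reached 1 RPKM. In bulk samples fewer cells of a type and less RNA per cell cannot be told apart.

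The ratios of the neighbours were centred close to those of the rest of chromosome 8: 16 of the 34 had a scaled ratio above 0 and 18 below. The median log2 ratio of Irf8 cKO over Ctrl was -0.02 over the 34 neighbours, against 0.03 over the 290 other chromosome 8 genes and 0.004 over all 6446 genes, on RPKM scaled by median of ratios. The quartiles were -0.15 and 0.19 for the neighbours and -0.10 and 0.16 for the other chromosome 8 genes. The size of the ratio, taken without its sign, had a median of 0.161 in the neighbours, against 0.132 in the rest of the chromosome and 0.150 in all genes. A ratio of at least 0.5 in size was found in 3 of 34 neighbours (8.82%), in 12 of 290 other chromosome 8 genes (4.14%) and in 286 of all genes (4.44%). These 3 were Snord68, Ankrd11 and Trappc2l. The filter selected for part of this: 6 of the 34 neighbours (17.6%) reached 1 RPKM in libraries of 1 group alone, Fanca and Snord68 in Irf8 cKO and Emc8, Trappc2l, Cog2 and Ttc13 in Ctrl, so their deposited values had to differ between the groups. Such genes were 9 of 290 on the rest of chromosome 8 (3.10%) and 305 of all genes (4.73%). Without them, 1 of 28 neighbours (Ankrd11) and 12 of 281 other chromosome 8 genes had a ratio of at least 0.5 in size.

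No neighbour passed an adjusted p of 0.05 in the limma fit on scaled values, in which 3 genes were called lower (0.0465% of all genes tested) and 1 higher (0.0155%). The lowest adjusted p was 0.0614, for the small nucleolar RNA Snord68, and the next was 0.264, for Ankrd11. At an unadjusted p under 0.05, Trappc2l was lower, against a background of 4.58%, and Snord68, Ankrd11 and Fanca were higher, against a background of 5.94%. Of these 4, Trappc2l, Snord68 and Fanca passed the filter through 1 group alone, and their p-values and calls carry that selection. On RPKM as deposited, without scaling, the median of all genes was displaced to -0.35 (log2), and ratios there are read against that shift. In that fit Trappc2l was called lower and Snord68 higher, where 1.09% of all genes (70 genes) were called lower and 0.0931% (6 genes) higher. Both Irf8 cKO libraries were below both Ctrl libraries in deposited RPKM for 17 of 34 neighbours (background 44.7%) and above both for 2, Fanca and Snord68 (background 1.19%).

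**Figure D1:**
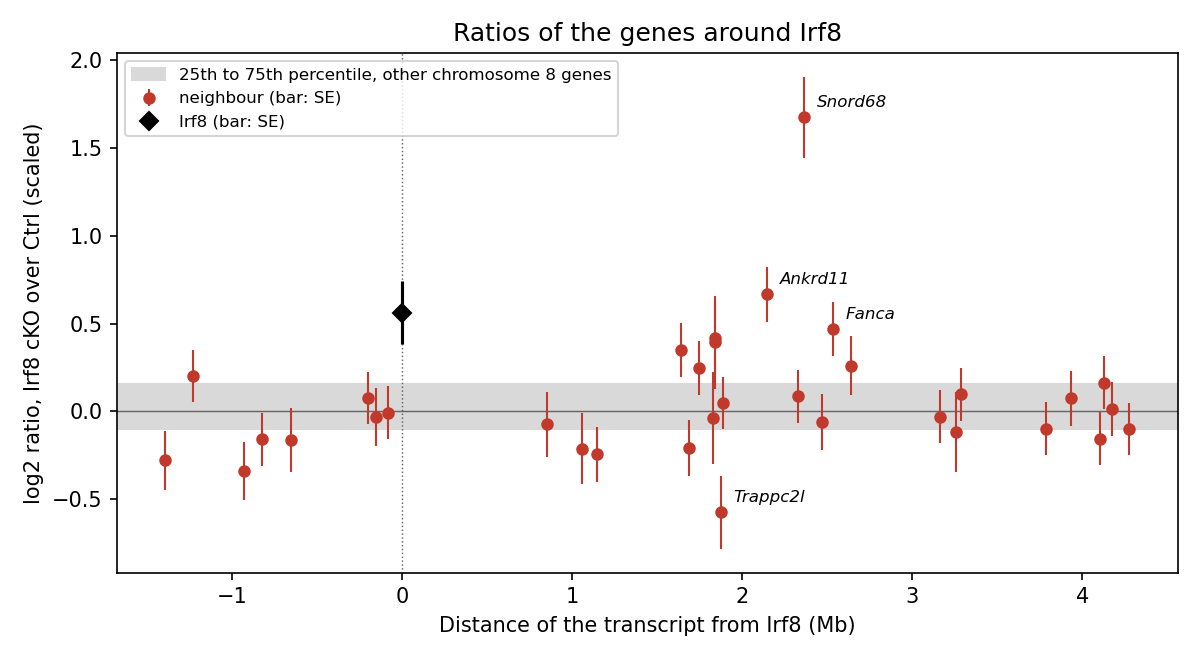
Log2 ratio of Irf8 cKO over Ctrl (scaled RPKM, pseudocount of 1 RPKM) for the 34 neighbours of Irf8, by distance from Irf8 in Mb. Distance is between the lower transcript coordinates. Bars show the SE of the fit, and the grey band lies between the quartiles of 290 other chromosome 8 genes. The neighbours within 1 Mb lie between -0.34 and 0.08, and the ratios farthest from 0, those of Snord68, Ankrd11 and Trappc2l, lie at 1 to 2.5 Mb.

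Irf8 lies at chr8:120736376-120756692 on the plus strand. Its own RNA was at 20.6 and 11.6 RPKM in Irf8 cKO libraries, against 14.5 and 14.9 RPKM in Ctrl libraries, so the groups overlapped. The scaled log2 ratio was 0.56 ± 0.18 (SE; adjusted p = 0.399, limma). The floxed exons are not given in the sources used here, so a level over the whole gene does not check the deletion. On RPKM as deposited the log2 ratio of Irf8 was 0.08 (adjusted p = 0.880).

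The closest neighbours had ratios near 0, and none was called. Over the 7 neighbours within 1 Mb the median log2 ratio was -0.07, with values between -0.34 and 0.08, and only Gse1 was above 0. The experiments differed there, with medians of -0.15 in experiment 1 and 0.07 in experiment 2. Of the 7, 2 were below 0 in both experiments and 1 above 0 in both (42.9% of the same sign, against 57.6% of all genes). The median of the scaled log2 ratio was 0.07 over the 16 neighbours at 1 to 2.5 Mb and 0.01 over the 11 beyond 2.5 Mb. The 8 neighbours before Irf8 had a median of -0.10 and the 26 after it 0.03. Across the 34 neighbours, Spearman's rho of the ratio with distance from Irf8, taken without its side, was 0.24 and Pearson's r was 0.11. This describes genes of the same 4 libraries, which are not independent points.

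Emc8 is a subunit of the complex that inserts proteins into the endoplasmic reticulum membrane. It lies on the minus strand, with its lower coordinate 82.5 kb before that of Irf8. Emc8 had 0.976 and 0.783 RPKM in Irf8 cKO libraries, against 1.10 and 1.44 RPKM in Ctrl libraries. Its scaled log2 ratio was -0.01 ± 0.15 (adjusted p = 0.991), the ratio nearest to 0 among the named neighbours. Gins2, a subunit of the GINS complex of the replication fork helicase, had 4.85 and 3.29 RPKM in Irf8 cKO libraries and 6.89 and 5.04 RPKM in Ctrl libraries. Its deposited values did not overlap, while the scaled log2 ratio was -0.03 ± 0.16 (adjusted p = 0.957). Gse1, a coiled-coil protein found with histone deacetylase complexes, had 2.11 and 1.40 RPKM in Irf8 cKO libraries and 2.29 and 2.26 RPKM in Ctrl libraries (scaled log2 ratio 0.08 ± 0.15, adjusted p = 0.882, and -0.26 as deposited). Gins2 and Gse1 overlap at their ends on opposite strands, and the counting is not stated to use strand, so reads in the overlap could belong to either.

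Farther before Irf8, Zdhhc7, a palmitoyltransferase of the Golgi, had 1.08 and 0.955 RPKM in Irf8 cKO libraries, against 2.24 and 1.41 RPKM in Ctrl libraries (scaled log2 ratio -0.17 ± 0.18, adjusted p = 0.788). Usp10, a deubiquitinase that acts on p53, had 2.68 and 1.96 RPKM in Irf8 cKO libraries, against 3.67 and 3.97 RPKM in Ctrl libraries (scaled log2 ratio -0.16 ± 0.15, adjusted p = 0.743). In both genes the Irf8 cKO values lay below the Ctrl values, and their log2 ratios as deposited (-0.47 for Zdhhc7 and -0.55 for Usp10) were on the side of the displacement of all genes. Cotl1, coactosin-like protein, which binds F-actin, had 4.50 and 2.17 RPKM in Irf8 cKO libraries, against 6.13 and 5.88 RPKM in Ctrl libraries. It had the lowest ratio within 1 Mb (-0.34 ± 0.17, adjusted p = 0.519) and was lower in both experiments (-0.15 and -0.52). Hsbp1, heat shock factor binding protein, was the most abundant neighbour before Irf8, with 8.21 and 5.39 RPKM in Irf8 cKO libraries and 13.7 and 10.2 RPKM in Ctrl libraries (-0.28 ± 0.17, adjusted p = 0.608).

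After Irf8, the first neighbour with a ratio was Map1lc3b, the LC3 protein of autophagosome membranes, at 854 kb. It had 2.81 and 2.04 RPKM in Irf8 cKO libraries, against 4.78 and 2.82 RPKM in Ctrl libraries (scaled log2 ratio -0.07 ± 0.19, adjusted p = 0.912), with the 2 experiments on opposite sides of 0 (-0.38 and 0.24). Klhdc4, a kelch repeat protein, had 1.53 and 0.501 RPKM in Irf8 cKO libraries, against 1.51 and 1.86 RPKM in Ctrl libraries, and its experiments also disagreed in sign (0.16 and -0.58). The fit gave -0.21 ± 0.20 for Klhdc4 (adjusted p = 0.746). Slc7a5, the light subunit of the large neutral amino acid transporter, had 3.13 and 1.34 RPKM in Irf8 cKO libraries and 4.13 and 3.36 RPKM in Ctrl libraries. It was lower in both experiments (-0.11 and -0.38) without passing the test (-0.24 ± 0.16, adjusted p = 0.622).

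Zc3h18, a zinc finger protein that links the cap-binding complex to RNA decay, had 2.11 and 2.03 RPKM in Irf8 cKO libraries and 1.94 and 2.24 RPKM in Ctrl libraries. Its scaled log2 ratio was 0.35 ± 0.15 (adjusted p = 0.483), while on RPKM as deposited it was -0.01. Cyba, the p22phox subunit of the phagocyte NADPH oxidase, had 3.67 and 1.77 RPKM in Irf8 cKO libraries, against 5.96 and 3.24 RPKM in Ctrl libraries (scaled log2 ratio -0.21 ± 0.16, adjusted p = 0.678). Cyba is also a gene of myeloid cells, whose summed markers were lower in each Irf8 cKO library than in the Ctrl library of the same experiment, and their part in its value was not tested.

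**Figure D2:**
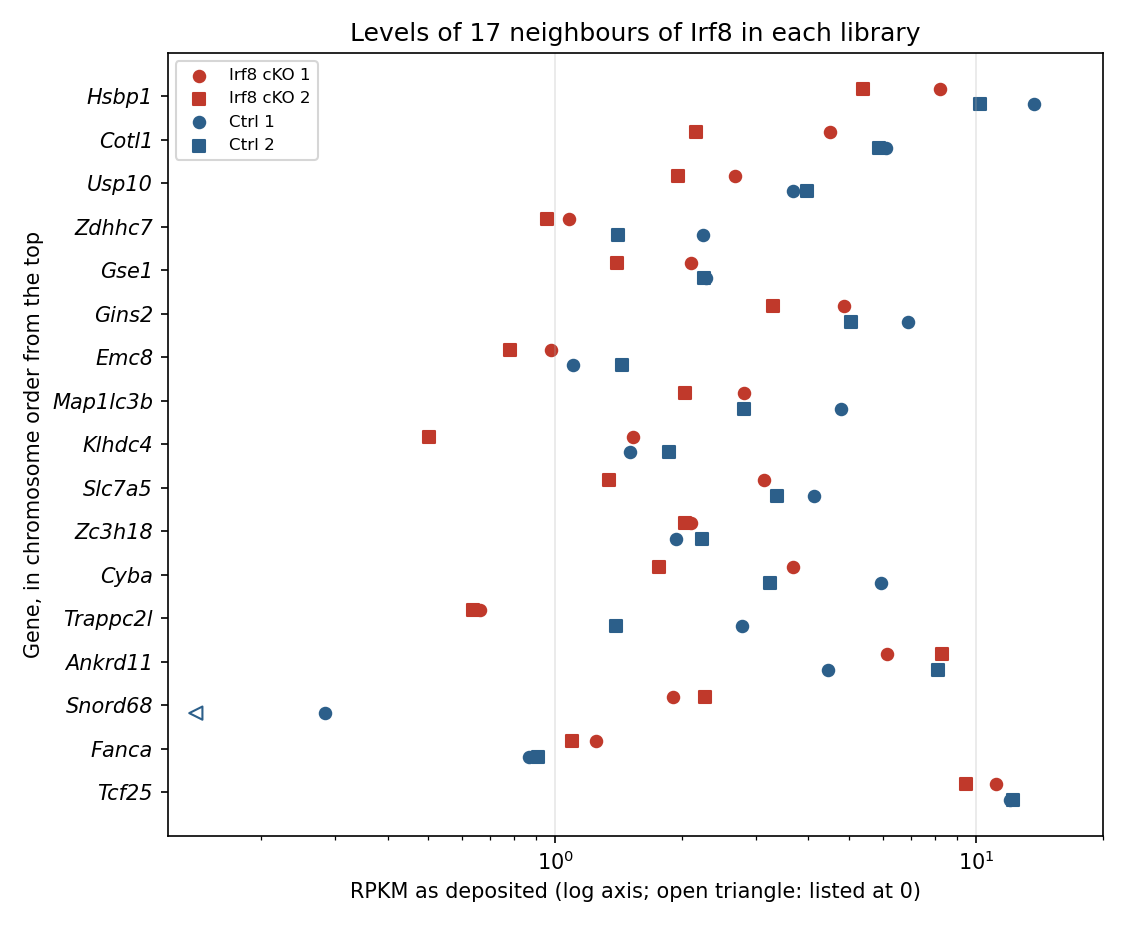
Deposited RPKM (log axis) of the 17 named neighbours in each library, in chromosome order from the top, with Irf8 cKO in red above Ctrl in blue, circles for experiment 1, squares for experiment 2 and an open triangle for a value listed at 0. Most Irf8 cKO points lie to the left of the Ctrl points, as they do for all genes as deposited, while for Snord68 and Fanca both lie to the right.

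Promoter sequences (RefSeq, GRCm38.p6, 250 bases before to 50 after the start) were found for 27 of the 34 neighbours with a ratio. The RefSeq start nearest to the deposited one was used, with no limit on the distance. It lay 1976 bases before the deposited start for Urb2 and 492 before it for Usp10. The tandem IRF motif, spelled GAAA, any 2 bases and GAAA and searched on both strands, was in 1 of the 27, Zc3h18, and in 3.41% of all 17832 promoters. The composite ETS and IRF motif, spelled GGAA, any 2 bases and GAAA, was in 1 of the 27, Zdhhc7, and in 2.60% of all promoters. Neither was in any of the 59 promoters found for the 79 neighbours without a ratio. The 250 bases before each start are printed because they hold the matches found, at chr8:120101473-120101722 for Zdhhc7 (minus strand) and chr8:122376366-122376615 for Zc3h18 (plus strand). Both lie just before the first exon, run 5′ to 3′ along the gene, and carry the match in capitals as its reverse complement, which starts 58 bases before the start of Zdhhc7 and 238 before that of Zc3h18, with no overlap of another match.
Zdhhc7: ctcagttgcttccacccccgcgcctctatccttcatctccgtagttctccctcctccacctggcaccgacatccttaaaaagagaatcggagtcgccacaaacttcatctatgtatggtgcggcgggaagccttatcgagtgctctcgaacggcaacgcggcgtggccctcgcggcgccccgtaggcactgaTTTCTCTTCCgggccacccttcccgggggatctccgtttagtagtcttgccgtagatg
Zc3h18: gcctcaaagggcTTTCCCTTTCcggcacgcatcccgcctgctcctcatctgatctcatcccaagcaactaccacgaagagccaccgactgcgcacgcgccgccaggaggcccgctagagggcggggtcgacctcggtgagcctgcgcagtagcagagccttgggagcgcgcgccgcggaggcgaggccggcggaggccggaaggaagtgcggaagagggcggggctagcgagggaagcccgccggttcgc
These 2 genes differed in the sign of their ratios (-0.17 for Zdhhc7, 0.35 for Zc3h18), and neither passed the test. A match is a string of letters and says nothing of binding in these cells. CpG dinucleotides were at more than 0.6 of the number expected from base composition in 22 of the 27 promoters (81.5%), against 85.6% on the rest of chromosome 8 and 81.8% of all genes with a ratio. In the neighbours without a ratio the share was 64.4%.

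Of 15 neighbours listed under transcription and chromatin, 7 had a ratio, 6 were above 0, 5 of them in both experiments, and the median was 0.08. Over all genes 3265 of 6446 ratios were above 0, 1951 of them in both experiments. None of the 7 was called. The list was relabelled after the values were seen. It includes Zc3h18, Tcf25 and Egln1, all above 0, whose roles as given here lie partly outside transcription and chromatin. Ankrd11, a large ankyrin repeat protein that binds chromatin regulators and steroid receptor coactivators, had the highest ratio among protein-coding neighbours. It lies at chr8:122883822-123042284 on the minus strand, 2147 kb after Irf8, and had 6.16 and 8.30 RPKM in Irf8 cKO libraries, against 4.45 and 8.14 RPKM in Ctrl libraries. The deposited values overlapped, yet within each experiment the Irf8 cKO library was the higher. The scaled log2 ratios were 0.59 in experiment 1 and 0.74 in experiment 2. As deposited they were 0.39 and 0.03, so they were alike only after scaling.

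The limma fit gave a scaled log2 ratio of 0.67 ± 0.16 for Ankrd11 (adjusted p = 0.264), which was the 47th highest among all 6446 genes. As deposited it was 0.21 (adjusted p = 0.655). Among genes with a mean of 5 RPKM or more its adjusted p was 0.0415, and over all alternatives tried on it the adjusted p lay between 0.0415 and 1.00. Leaving out 1 library also dropped the experiment block, and it moved the ratio both ways. The ratio was 0.23 without Ctrl 1, 0.16 without Irf8 cKO 2, 1.10 without Ctrl 2 and 1.17 without Irf8 cKO 1. From 1 library against 1 library, the authors' deposited table gave Ankrd11 0.67 (log2) with p = 0.0347 for experiment 1. In experiment 2 the value in the authors' deposited table was 0.75 (log2), with an unadjusted p = 0.0235 of the authors. It was the 1 neighbour above 0 with a p under 0.05 in both of the authors' comparisons, as were 2 of the 290 other chromosome 8 genes and 0.372% of all genes (24 genes).

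Tcf25, a protein of the ribosome quality control complex first described as a transcription factor, was among the most abundant neighbours, with 11.2 and 9.48 RPKM in Irf8 cKO libraries and 12.1 and 12.3 RPKM in Ctrl libraries. Its scaled log2 ratio was 0.26 ± 0.17 (adjusted p = 0.628) and -0.22 as deposited, where the median of all genes was -0.35. Cbfa2t3, a corepressor of the ETO family, and Egln1, the oxygen-sensing prolyl hydroxylase of HIF, had ratios of 0.05 and 0.01. Taf5l, a subunit of the PCAF and STAGA acetyltransferase complexes, was the only one of the 7 below 0 (-0.12), and its experiments disagreed (0.36 and -0.59).

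In replication and repair, 4 of 8 neighbours had a ratio, 1 of them above 0, with a median of -0.03. Fanca, a core subunit of the Fanconi anaemia complex that acts on DNA crosslinks, lies at chr8:123268244-123318576 on the minus strand. It had 1.25 and 1.10 RPKM in Irf8 cKO libraries, against 0.868 and 0.913 RPKM in Ctrl libraries, with no overlap, and it passed the filter only through its Irf8 cKO values. The scaled log2 ratio was 0.47 ± 0.15 (adjusted p = 0.399), and 0.37 and 0.57 in the 2 experiments. Its end overlaps Zfp276 on the other strand. Cdt1, the licensing factor that loads the replicative helicase, gave opposite results: it had 1.85 and 1.86 RPKM in Irf8 cKO libraries, against 4.13 and 1.81 RPKM in Ctrl libraries, so its ratio was -0.63 in experiment 1 and 0.56 in experiment 2, and the single high value was that of Ctrl 1.

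The highest scaled ratio of all was that of Snord68, a small nucleolar RNA of the box C/D class, which guide methylation of ribosomal RNA. It ranked 1st among the 6446 genes, with the next at 1.47, and it was among them only through its Irf8 cKO values. Its 48-base entry at chr8:123103058-123103105 lies inside the ribosomal protein gene Rpl13 on the same strand. Snord68 had 1.91 and 2.27 RPKM in Irf8 cKO libraries, against 0.283 RPKM in Ctrl 1 and 0 in Ctrl 2, and the groups did not overlap. Over 48 bases these values stand for an estimated 7 and 7 reads in Irf8 cKO libraries, against 1 and 0 reads in Ctrl libraries, and a count of 0 allows up to 0.996 RPKM in Ctrl 2 (3 reads, counting error only).

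These reads are estimates, 6.96 and 6.94 in Irf8 cKO libraries and 0.991 and 0 in Ctrl libraries before rounding. Taken as whole reads and summed over each group, they give a ratio per mapped read of 13.6. The exact 95% interval for counting error alone runs from 2.07 to 575 and holds no spread between libraries. The interval also takes no account of the filter, which Snord68 passed only through its Irf8 cKO values. The scaled log2 ratio of 1.68 ± 0.23 (adjusted p = 0.0614) depends on the pseudocount. From 1 library against 1 library, the authors' deposited log2 ratio was 2.96 in experiment 1 and 6.50 in experiment 2. In neither experiment was the authors' p for Snord68 under 0.05. Snord68 was called as deposited (adjusted p = 3.12e-08), without the experiment as a block (0.0445), and on leaving out Ctrl 1 (0.00368), Ctrl 2 (0.0158) or Irf8 cKO 1 (0.00302). The call as deposited was lost without Ctrl 1 (adjusted p = 0.852) or Ctrl 2 (0.912). On scaled values it was not called without Irf8 cKO 2 (0.0775), with upper-quartile scaling (0.0717), without a variance trend (0.0839), with a pseudocount of 0.1 RPKM (0.269) or with no filter on RPKM (0.671). Rpl13 itself had 29.3 and 24.2 RPKM in Irf8 cKO libraries, against 45.3 and 36.2 RPKM in Ctrl libraries (scaled log2 ratio -0.08 ± 0.22, adjusted p = 0.923). The ratio of Rpl13 was -0.36 in experiment 1 and 0.20 in experiment 2, against 1.19 and 2.16 for Snord68. Reads of the host transcript that cross the entry cannot be told from those of the small RNA.

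Trappc2l, a subunit of the TRAPP complexes of membrane traffic, had the lowest ratio. It lies at chr8:122611626-122615591 on the plus strand and had 0.665 and 0.639 RPKM in Irf8 cKO libraries, against 2.79 and 1.40 RPKM in Ctrl libraries, with no overlap. The scaled log2 ratio was -0.58 ± 0.21 (adjusted p = 0.405). Experiment 1 gave -0.97 and experiment 2 gave -0.18, so most of it came from experiment 1. As deposited it was -0.87 (adjusted p = 0.0310). That call was lost without the block (adjusted p = 0.230) and on leaving out Ctrl 1, Ctrl 2 or Irf8 cKO 2 (adjusted p = 1.00, 0.912 and 0.230), and kept without Irf8 cKO 1 (0.0154), where 22.5% of all genes were called lower. Trappc2l passed the filter only through its Ctrl values.

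Trappc2l shares its start region with Galns, a lysosomal sulfatase that is read the other way. Galns had 0.824 and 1.60 RPKM in Irf8 cKO libraries and 1.33 and 0.823 RPKM in Ctrl libraries, with experiment ratios of -0.20 and 0.99 (fit 0.39 ± 0.26, adjusted p = 0.640). The partners thus had opposite signs in experiment 2 and the same sign in experiment 1. The 138 bases between their starts, chr8:122611488-122611625 on the plus strand, 5′ to 3′ towards Trappc2l, are printed because both genes start at its ends, with its 7 CpG dinucleotides in capitals.
Galns to Trappc2l: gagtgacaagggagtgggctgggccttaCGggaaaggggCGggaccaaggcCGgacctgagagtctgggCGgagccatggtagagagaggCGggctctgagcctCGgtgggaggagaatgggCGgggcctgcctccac
Such pairs, with starts at most 1000 bases apart and transcripts that point away from each other, were frequent around Irf8: 23 of the 113 neighbours (20.4%) were in one, against 8.94% of all genes. In 2 pairs both partners were neighbours with a ratio. In the other, 2810004N23Rik had a log2 ratio of -0.16 and Gnpat, a peroxisomal enzyme of ether lipid synthesis, one of 0.16, with 3 bases between their starts.

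Of the neighbours listed under membrane traffic, protein quality, nuclear pore and ribosome assembly, 11 of 19 had a ratio, 2 were above 0, and the median was -0.07. Besides those above, Mbtps1, a protease that cuts SREBP in the Golgi, was at 0.20. Urb2, a ribosome assembly protein, was at 0.10, and Cog2, a Golgi tether subunit, at -0.10. Chmp1a, an ESCRT-III subunit, was at -0.06 and Nup133, a nuclear pore subunit, at -0.03. In metabolism and transport 4 of 16 had a ratio (Galns, Aprt, Slc7a5 and Cyba), and the median was -0.15 in experiment 1 and 0.40 in experiment 2. Aprt, the adenine salvage enzyme, had 2.05 and 1.73 RPKM in Irf8 cKO libraries and 2.54 and 1.13 RPKM in Ctrl libraries, and its ratios of -0.03 and 0.87 differed between experiments as those of Galns did. Piezo1, a mechanosensitive ion channel, was at 0.25, and Spg7, a protease of the mitochondrial inner membrane, at 0.09.

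The sign of the ratio was the same in both experiments for 21 of 34 neighbours, 12 above 0 and 9 below (61.8%), against 58.6% of the other chromosome 8 genes and 57.6% of all genes. Across the neighbours Pearson's r between the experiments was 0.45, and 0.09 without Snord68. Across the other chromosome 8 genes it was 0.22. These are descriptions across genes of the same libraries, and the points share depth and scaling.

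**Figure D3:**
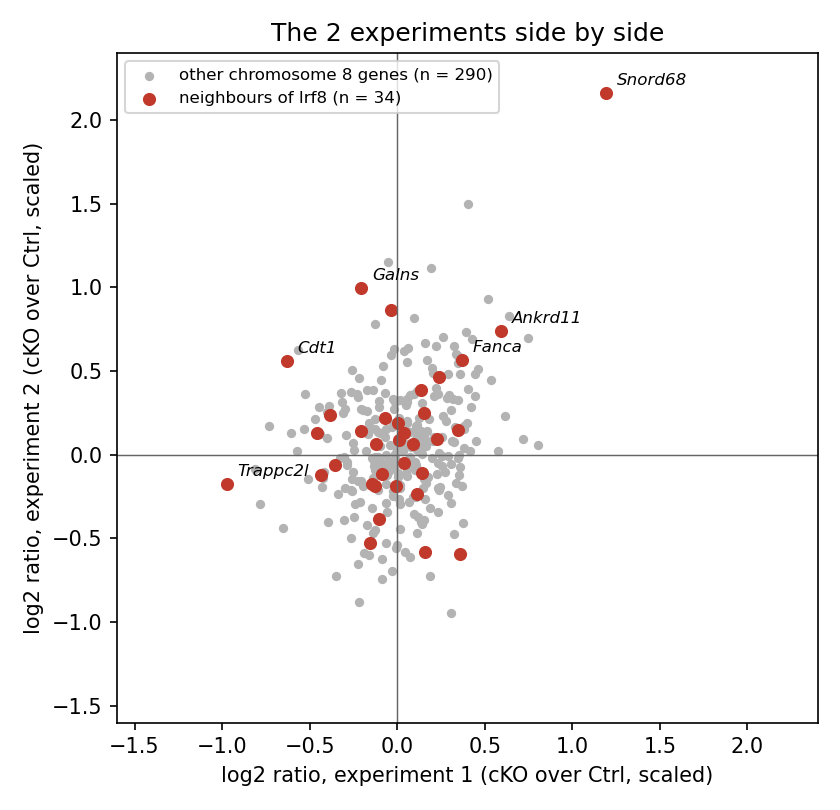
Scaled log2 ratio of Irf8 cKO over Ctrl in experiment 1 (horizontal) and experiment 2 (vertical) for the 34 neighbours of Irf8 (red) and 290 other chromosome 8 genes (grey). The red points lie within the grey cloud except for Snord68 at the upper right and, in experiment 1, Trappc2l at the left.

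Snord68 left aside, longer neighbours tended to have higher ratios. With log2 length, Pearson's r was -0.42 over 34 neighbours and 0.43 without Snord68, so its sign rested on that 1 short entry. Spearman's rho was 0.37 over the 34 and 0.49 without Snord68. Over 288 other chromosome 8 genes r was 0.02 and rho 0.03, and over 6386 genes with a length r was 0.19 and rho 0.21. Ankrd11, at 8468 bases, was the longest of the 34, and the short transcripts of Cyba (744 bases), Hsbp1 (1208) and Cotl1 (1596) were below 0. Aprt (849 bases) and Snord68 were short and above 0. The part of length in the ratios of single neighbours was not tested.

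**Figure D4:**
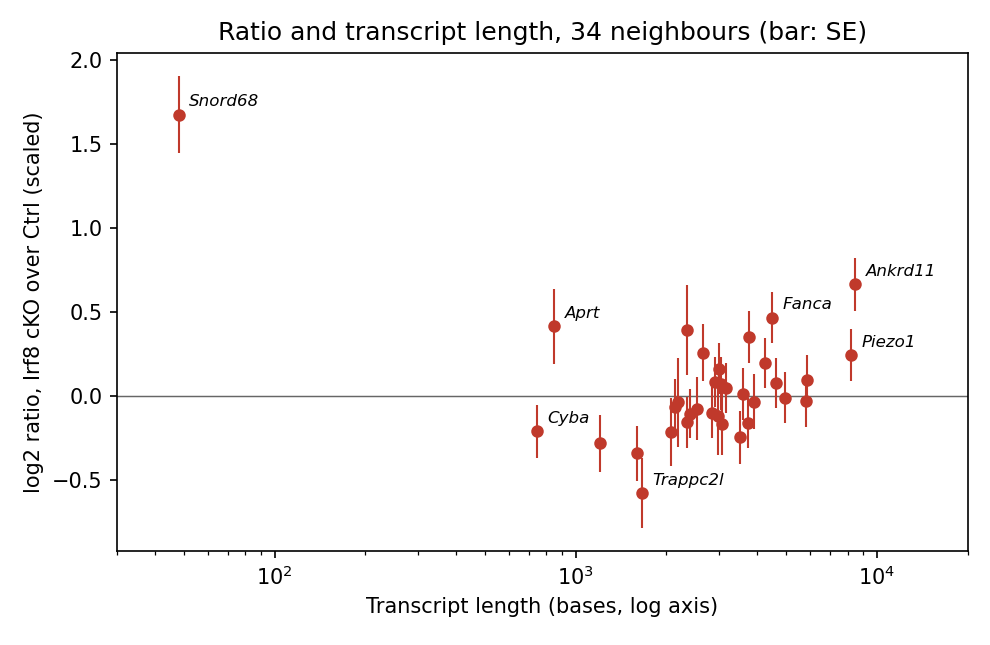
Scaled log2 ratio of Irf8 cKO over Ctrl (vertical, bars for the SE of the fit) by transcript length in bases (log axis) for the 34 neighbours. Leaving Snord68 aside, the points run upward from Cyba and Trappc2l at the left to Ankrd11 at the right, with Aprt above the others of its length.

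The other 79 neighbours had no ratio. Of these 19 were listed at 0 in all 4 libraries, 20 were above 0 but under 0.1 RPKM throughout, 33 peaked between 0.1 and 1 RPKM, and 7 reached 1 RPKM in a single library. Those 7 were Rnf166, Mvd, Hsdl1, Abcb10, Banp, Zfpm1 and Acsf3. The forkhead genes Foxc2 and Foxl1, which act in mesenchyme, were at 0 throughout. The neighbours with a ratio were themselves modest in level, with mean RPKM between 0.970 and 11.2 and a median of 1.85, against 2.22 on the rest of chromosome 8 and 2.44 over all genes with a ratio.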

How the data were processed

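Members, role lists and motifs were chosen with earlier results of these data known. The role lists were relabelled after the values were seen and serve description only. Per the series design text the authors made the values in Wardrobe, after amplification with Ovation RNA-Seq System v2 and Nextera XT libraries, per the labels' protocols. Cuffdiff, Cufflinks 2.2, DESeq and TopHat2 2.0 stand in the submitters' processing notes without a role, beside the builds mm9 and mm10, and the deposited coordinates match mm10. The authors deposited RPKM per library and RefSeq gene in 1 table of 23471 entries per experiment. The authors' own log2 ratio and p-value of 1 library against 1 library stand beside them, per the file headers.

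Entries of the 2 symbols that recur were summed. RPKM were scaled by median of ratios, and log2(scaled RPKM + 1) was fitted with limma 3.58.1 in R 4.3.3 (eBayes with a trend, 2-sided), blocked on experiment (prior degrees of freedom 6.47, residual 1). A log2 ratio on this scale understates the change of low genes. P-values were adjusted by Benjamini-Hochberg over all 6446 genes. The scaled fit is the main one because an earlier account of these data gave a displacement of all genes in the deposited RPKM. In the fit on RPKM as deposited the prior degrees of freedom were infinite, so a gene's own spread had no weight. The pairing comes from the experiment numbers in the labels and the separate tables, and deviations of same-numbered libraries correlated at 0.330. Low values came out whole within 0.1 read for 73.7% to 77.4%, which is too few to recover reads over all genes, and no count model was fitted. Lengths came from GENCODE transcripts of GRCm38, and for entries under 500 bases from the table's span. The named neighbours are the 5 nearest with a ratio on each side, the 5 highest and 5 lowest ratios of the same sign in both experiments, the 5 highest levels and those called as deposited. Others named were chosen after their values were seen. Plots and tables used Python 3.11.15, numpy 2.4.6, pandas 2.3.3, scipy 1.17.1 and matplotlib 3.10.9. The driver of the Cre allele is not reported here.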

Additional observations from a re-analysis of the deposited data

How the results depend on the processing

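The difference in median log2 ratio between neighbours and other chromosome 8 genes was -0.04, and stayed within the spread of the experiments under each alternative tried but a mean of 5 RPKM or more, where it was 0.17 over 4 neighbours. For those within 1 Mb the difference (-0.10) lay between -0.19 and 0.02. The upper end came from a mean of 5 RPKM or more, where 1 neighbour, Gins2, was left within 1 Mb. The difference in median absolute log2 ratio was 0.029. It was 0.0081 as deposited, 0.034 with upper-quartile scaling, 0.015 with a pseudocount of 0.1 RPKM, -0.0065 with no filter, 0.098 at a mean of 5 RPKM or more, 0.077 within 2.5 Mb, 0.012 beside all other genes, and 0.027 both without overlapping neighbours and without Snord68. On leaving out 1 library each it lay between -0.038 and 0.048, and the cause was not tested. Of the neighbours called higher (0 in all), 1 was called as deposited, 1 without the replicate block (Snord68) and 1 at a mean of 5 RPKM or more (Ankrd11), with 0 to 1 on leaving out a library. Of those called lower (0), 1 was called as deposited and 0 on leaving out any library. As deposited, the 1 lower call became 0 without the replicate block and 0 to 7 on leaving out a library (7 without Irf8 cKO 1, where 1450 of 6446 genes were called lower), and the 1 higher call 0 to 1. Where a library is left out, the experiment block is dropped as well. The lone sample of its group is then assumed to vary like the other group. The block changed no other call. Of 174 alternatives run on the 17 named neighbours, 12 turned the sign: Gse1 (-0.26), Zc3h18 (-0.0067) and Tcf25 (-0.22) as deposited, Gins2 (0.043) at a mean of 5 RPKM or more, and, on leaving out a library, Gins2 (-0.15 to 0.085), Map1lc3b (-0.30 to 0.15), Emc8 (-0.15 to 0.13), Cyba (-0.49 to 0.071) and Klhdc4 (-0.45 to 0.022). None of these was called. Leaving out Snord68 and the deposited values with a library left out or without the block were chosen after seeing the data. With 2 libraries a group and 1 residual degree of freedom, small ratios of genes near 1 RPKM cannot be resolved.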

Other observations

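Zfpm1, a cofactor of GATA proteins 1546 kb after Irf8, fell short of the filter and was singled out after its values were seen. It had 1.10 and 0.879 RPKM in Irf8 cKO libraries, against 0.478 and 0.670 RPKM in Ctrl libraries, with no overlap. The authors' deposited table gave Zfpm1 1.41 (log2) with p = 0.00966 for experiment 1, and 1.11 with p = 0.0777 for experiment 2. On the rest of chromosome 8 the highest and the lowest scaled log2 ratios were also those of small nucleolar RNAs, 0.95 for Snora68 and -0.55 for Snord71, as the highest around Irf8 was.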
